A study of Mus musculus with 6 samples.

Results

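Mitochondrial complex I (NADH:ubiquinone oxidoreductase) is built from nuclear genes whose symbols begin with Nduf and from 7 genes of the mitochondrial genome. The nuclear genes were taken from the count table of mouse ILC3s, group 3 innate lymphoid cells, as every row whose identifier maps to a protein-coding symbol beginning with Nduf. There were 48 such genes among 55401 identifiers, and all 48 passed the filter on low counts, which left 18253 genes to test. They comprise 37 subunits, 8 Ndufaf assembly factors and 3 genes that are not part of the finished complex. The subunits are 7 core subunits, 9 accessory subunits of the matrix arm, 20 of the membrane arm and Ndufab1, which sits in both arms. Of the 48, 46 are protein-coding in the GENCODE mouse set and Ndufb1-ps and Ndufb4c only in RefSeq, a choice settled after their counts had been seen. A further 3 Nduf symbols are pseudogenes and were left out.

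ILC3s are lymphocytes of mucosal tissue that lack antigen receptors and release interleukin 22 and interleukin 17. Per the labels, ILC3s from the lamina propria of the small intestine of wild-type mice, called pups in the protocol, had been exposed beforehand to vehicle or to PEox, with 3 RNA-seq libraries in each group. PEox is not spelled out in the labels and is the usual abbreviation for oxidised phosphatidylethanolamine, a lipid product formed in ferroptosis. Not given in the sources used here are its dose, the exposure time and whether cells met it in the animal or in culture. The labels do not tie each library to its own animals, so a p-value reflects only variation among these 6 libraries, which can be technical.

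The protocol text speaks of a sort for epithelial cells (EpCAM present, CD45 absent), whereas the other labels name ILC3s, and the transcripts were compared with marker lists of both. Libraries held 56252806 to 66849230 counts. The 12 ILC3 markers, all of them detected, summed to 12524 to 12759 CPM (counts scaled to library depth with TMM factors) in vehicle and 7437 to 7536 in PEox. Of these 12 markers 5 fell and 3 rose at an adjusted p under 0.05 (edgeR quasi-likelihood test), with a median log2 fold change of -0.14. For this and the lists that follow, the share over all tested genes was 18.8% lower and 18.3% higher. Most of the drop in that sum was Il22, the interleukin 22 gene, at 6660.3 to 6787 CPM in vehicle and 2445 to 2554 in PEox, while Kit, Tcf7 and Il17f were higher in every PEox library than in any vehicle library. Id2 was at 2827 to 3135 CPM in vehicle and 1627 to 1723 in PEox. Thy1 (122 to 135 and 41.6 to 49.8 CPM) and Gata3 (361 to 399 and 275 to 333 CPM) were also lower in every PEox library. Among all 18253 tested genes, 4838 were lower in every PEox library than in any vehicle library, and 4400 were higher. The 10 epithelial markers summed to 98.5 to 112 and 59.6 to 67.6 CPM, and of the 7 tested 3 fell. Of 8 B and plasma cell markers 8 fell, from sums of 279 to 299 CPM in vehicle to 41.5 to 46.8 in PEox. Of 7 ILC1 and NK cell markers 6 fell (308 to 322 and 84.1 to 88.4 CPM), and of 7 T cell markers 5 fell and 1 rose (104 to 118 and 42.9 to 54.9 CPM). Of 7 mast cell and basophil markers 4 fell (44.5 to 46.5 and at most 14.2 CPM), and of 6 erythroid markers 5 rose (2754 to 2802 and 5121 to 5808 CPM). Of 5 tested markers of stroma and endothelium 3 rose and 1 fell (204 to 230.1 and 299 to 328 CPM), of 4 tested ILC2 markers 2 fell (46.4 to 53.5 and 29.0 to 33.3 CPM), and of 8 myeloid markers 2 fell and 1 rose (278 to 283 and 232 to 255 CPM). No marker was at 0 in all 6 libraries, and Cd8a, Mcpt8, Il13, Cdh5, Fabp1 and Fabp2 were at 0 in the 3 PEox libraries. The part of these other cells in the results on complex I was not tested. In bulk RNA, fewer cells of a type and less RNA per cell cannot be told apart.

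Complex I takes electrons from NADH and passes them through a flavin and a chain of iron-sulfur clusters to ubiquinone, and couples this to pumping protons across the inner mitochondrial membrane. The core subunits carry the reaction, with the nuclear-encoded ones in the matrix arm and the mitochondrially encoded ones in the membrane arm. Accessory subunits surround and stabilise them. Assembly factors help to build the complex and leave it, and several modify single subunits. Lymphocytes use the respiratory chain together with glycolysis, and respiratory activity is known to change when they are activated.

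Nearly every nuclear subunit gene was lower after PEox. Of the 37 subunits, 36 fell and 1, Ndufs1, rose at an adjusted p under 0.05 (edgeR quasi-likelihood test, Benjamini-Hochberg adjustment over all tested genes), and in the same test 18.8% of all genes fell and 18.3% rose. With the dependence of fold change on transcript length and GC content removed, 25 subunits fell and 1 rose, and Ndufv1, Ndufa3 and Ndufa6 were among those that then had log2 fold changes above 0. In that analysis 13.2% of all genes fell, the median of all genes was 0.14 and 61.6% of called genes were higher. As fitted, the median log2 fold change of the subunits was -0.80, a level 42.7% lower, where the median of all tested genes was 0.00. Of the 8 assembly factors 5 fell and 3 were not called, with a median of -0.51. After the same removal 1 of the 8 fell, beside 13.2% of all genes. Without vehicle library 1, vehicle library 3 or PEox library 1, 3 assembly factors were called lower. Scaling by library size alone shifted the median of all genes to 0.14, gave 34 subunits and 3 assembly factors lower and a subunit median of -0.67, and raised the share of higher genes among all called genes from 49.3% to 61.9%, so that directions are relative to the scaling.

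**Figure D1:**
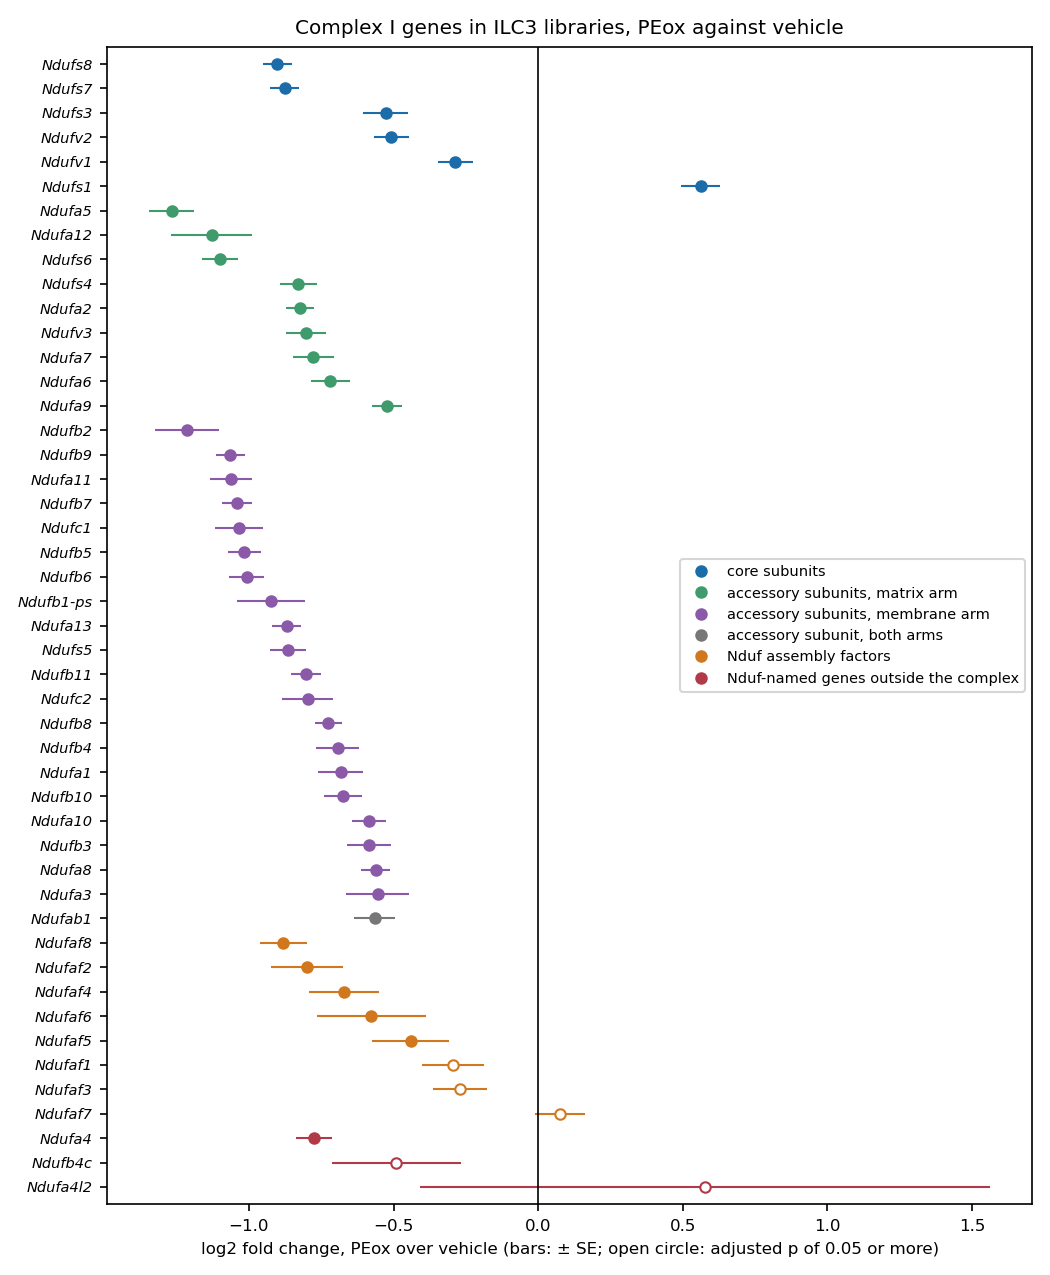
Log2 fold change of PEox over vehicle on the horizontal axis for 47 of the 48 genes, with bars of ± SE from 3 libraries a group; filled circles have an adjusted p under 0.05 and colours give the class. Ndufs1 is the filled circle to the right of 0 and the other filled circles lie to the left. Without the length and GC trend fewer genes are called lower. Ndufv1, Ndufa3, Ndufa6, Ndufaf3 and Ndufb4c are among those that then move to the right of 0. The median of all tested genes is then 0.14.

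Summed subunit CPM was 6643, 6377 and 6577 in the vehicle libraries and 3993, 4005 and 3850.4 in the PEox libraries, or 6532 ± 138 and 3950 ± 86.2 (SD, n = 3). Every PEox library was below every vehicle library for 36 of 37 subunits and for 7 of 8 assembly factors, a pattern found in 26.5% of all tested genes. Members are not independent of each other, and no p-value is given for the class.

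The promoters of 4 of these genes are shown as examples. They hold motifs, among 4 that were searched, that a larger share of the members than of all genes held. Other members, listed below, hold the same motifs and are not shown. The windows run from 250 bases before to 50 bases after the annotated start, 300 bases in all, and come from RefSeq on GRCm38.p6. They are written 5′ to 3′ along the gene with the motif in capitals. Ndufs7, Ndufs6 and Ndufaf8 hold AAGATGGCG, a motif of YY1, and Ndufa11 holds 2 overlapping copies of GCATGCGC, a motif of NRF1 (nuclear respiratory factor), 1 on each strand.
Ndufs7 (chr10:80249199-80249498, plus strand): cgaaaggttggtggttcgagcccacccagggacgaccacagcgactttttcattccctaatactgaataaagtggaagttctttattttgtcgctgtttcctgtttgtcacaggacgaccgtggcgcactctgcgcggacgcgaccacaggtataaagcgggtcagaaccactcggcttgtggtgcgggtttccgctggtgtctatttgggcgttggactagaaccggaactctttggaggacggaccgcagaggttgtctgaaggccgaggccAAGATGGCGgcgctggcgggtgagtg
Ndufs6 (chr13:73328433-73328732, minus strand): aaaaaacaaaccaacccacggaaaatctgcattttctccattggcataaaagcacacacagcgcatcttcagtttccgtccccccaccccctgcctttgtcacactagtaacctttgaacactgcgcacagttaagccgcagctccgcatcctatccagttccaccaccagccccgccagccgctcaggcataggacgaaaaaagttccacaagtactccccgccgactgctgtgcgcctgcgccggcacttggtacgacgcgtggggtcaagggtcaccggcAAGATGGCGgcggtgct
Ndufaf8 (chr11:120098684-120098983, plus strand): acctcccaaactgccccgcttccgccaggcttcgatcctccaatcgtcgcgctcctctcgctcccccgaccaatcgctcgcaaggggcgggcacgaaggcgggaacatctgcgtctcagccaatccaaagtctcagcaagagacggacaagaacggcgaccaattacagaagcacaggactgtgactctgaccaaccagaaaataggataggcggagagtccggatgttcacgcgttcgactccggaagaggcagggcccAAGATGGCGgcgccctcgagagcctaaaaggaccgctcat
Ndufa11 (chr17:56717512-56717811, plus strand): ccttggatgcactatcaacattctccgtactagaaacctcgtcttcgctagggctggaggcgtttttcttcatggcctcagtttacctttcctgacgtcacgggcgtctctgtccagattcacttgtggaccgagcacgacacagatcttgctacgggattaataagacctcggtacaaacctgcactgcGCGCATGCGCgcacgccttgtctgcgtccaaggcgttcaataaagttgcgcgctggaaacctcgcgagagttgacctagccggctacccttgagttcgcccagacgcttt

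Of the 48 members 41 had a window in the promoter table. On either strand, AAGATGGCG was found in 6 of the 41 (14.6%) and in 1.64% of 27025 genes, and GCATGCGC in 5 (12.2%) and in 3.05%. The 27025 genes were not limited to those tested here, as all members were, and were not matched to the members by GC content. The 6 genes with AAGATGGCG were Ndufa9, Ndufaf8, Ndufc1, Ndufs4, Ndufs6 and Ndufs7, all with the match on the gene's strand and between 10 and 35 bases after the start. The motif contains the letters ATG, so a match after the start may include a translation start codon, which was not tested. The 5 genes with GCATGCGC were Ndufa11, Ndufa6, Ndufa8, Ndufaf4 and Ndufaf5. The ETS motif CCGGAAGT, bound by GABP among other factors, was found in 1 member, Ndufs3 (2.4%), and in 4.31% of all genes, and the ERR alpha motif TCAAGGTCA in 0 members and 0.47% of all genes. The median log2 fold change was -0.88 for the 6 genes with AAGATGGCG and -0.73 for the other members with a window. It was -0.67 for the 5 with GCATGCGC against -0.80 for the others. Ndufa11, whose window is shown, fell most of those 5, at -1.06. Ndufa9, which fell least of the 6 at -0.52, is not shown. A match to these letters is a description of the window only.

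Among the 7 core subunits the changes ran from -0.90 to 0.56 on the log2 scale, with a median of -0.51. Ndufs8, which carries a pair of the iron-sulfur clusters next to the quinone site, was at 325, 303 and 320.5 CPM in the vehicle libraries, here and below in the order 1, 2, 3, and at 163, 174 and 170.2 in the PEox libraries. The PEox level was 46.5% lower with no overlap between the groups, a log2 change of -0.90 ± 0.05 (SE, adjusted p = 7.66e-06). Ndufs7, which holds the last cluster before ubiquinone, was at 269, 257 and 262 CPM in vehicle and 139, 149.8 and 140.4 in PEox, a log2 change of -0.88 ± 0.05 (SE, adjusted p = 8.81e-06). These 2 subunits of the quinone-binding part fell most among the core genes.

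Ndufs3, also of the quinone-binding part, was at 187, 184 and 207 CPM in vehicle libraries and 147, 127 and 126 in PEox libraries, with a log2 change of -0.53 ± 0.08 (SE, adjusted p = 0.00101). The groups did not overlap. With the length and GC trend removed Ndufs3 was not called, at -0.09 (adjusted p = 0.348).

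A further 3 core genes encode the NADH-oxidising part. Ndufv1, which binds NADH and the flavin, was at 180.5, 184 and 195 CPM in vehicle and 143, 158 and 157 in PEox, a log2 change of -0.29 ± 0.06 (SE, adjusted p = 0.00608). Its partner Ndufv2 was at 212, 217 and 238 CPM in vehicle and 162, 149.7 and 156 in PEox, a log2 change of -0.51 ± 0.06 (SE, adjusted p = 0.000336). Without the length and GC trend Ndufv1 stood at 0.03 (adjusted p = 0.776) and Ndufv2 at -0.27 (adjusted p = 0.00843), so that the call was lost for the first and kept for the second. Library size scaling also ended the call of Ndufv1.

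Ndufs1 went the other way. It encodes the largest subunit of the complex, which holds several iron-sulfur clusters of the NADH-oxidising part, and it was at 92.1, 100.1 and 86.9 CPM in vehicle libraries and 141, 135 and 136 in PEox libraries. All PEox libraries were above all vehicle libraries, at a log2 change of 0.56 ± 0.07 (SE, adjusted p = 0.000326). As a share of the median of the other 6 core genes in the same library, Ndufs1 was 38.3%, 42.2% and 34.8% in vehicle and 91.3%, 87.5% and 86.7% in PEox, on CPM not divided by length. The rise was called in all 15 alternative analyses, with log2 fold changes from 0.51 to 0.70. Exons of Eef1b2, a translation elongation factor gene on the opposite strand, and of the long noncoding RNA Ino80dos overlap 6.2% of the exon bases of Ndufs1. Eef1b2 itself fell from 187 ± 3.78 to 106 ± 5.84 CPM (SD, n = 3), by 0.83 on the log2 scale, and Ino80dos rose from 1.74 ± 0.522 to 5.03 ± 0.898 CPM. Whether reads of these genes were counted to Ndufs1 was not tested.

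**Figure D2:**
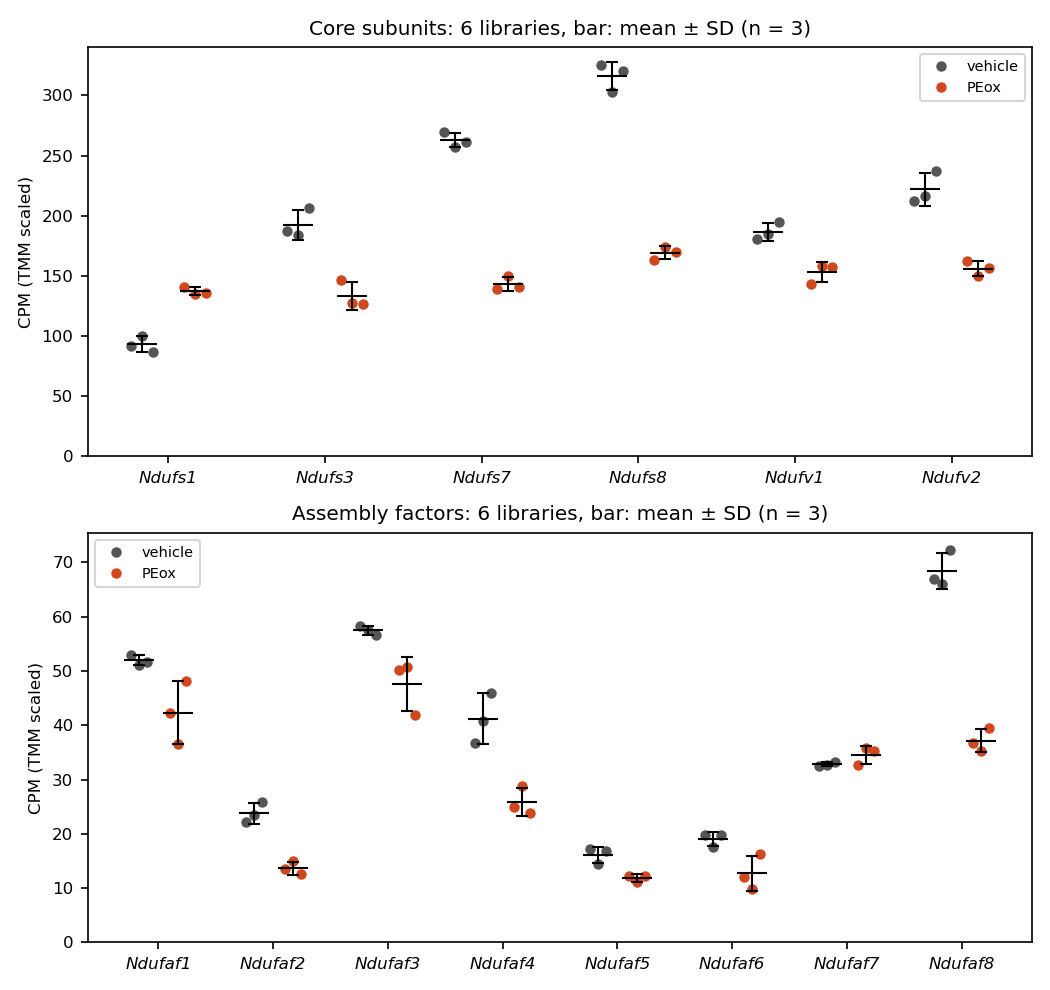
CPM with TMM scaling on the vertical axis for 6 of the 7 core subunits (upper panel) and the 8 assembly factors (lower panel), with 1 point per library and lines for mean ± SD of 3 libraries. Ndufs1 is the gene of the upper panel with all PEox points above the vehicle points, and Ndufaf7 the gene of the lower panel whose groups overlap.

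All 30 accessory subunits fell, with a median log2 fold change of -0.81, of which 9 belong to the matrix arm (median -0.82), 20 to the membrane arm (median -0.83) and Ndufab1 to both. After removal of the length and GC trend 22 of the 30 were called lower and none higher, beside 13.2% of all genes lower. Ndufa3 and Ndufa6 were then above 0, where the median of all genes was 0.14. Library values follow for the 5 with the smallest and the 5 with the largest fold change.

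Ndufa5 changed most. It is an accessory subunit of the quinone-binding part, at 84.4, 84.0 and 89.5 CPM in vehicle and 33.7, 38.0 and 35.4 in PEox, a log2 change of -1.27 ± 0.08 (SE, adjusted p = 1.08e-05) and a level 58.5% lower. Ndufb2, a small membrane-arm subunit, was at 80.4, 77.2 and 81.0 CPM in vehicle and 34.6, 39.2 and 29.1 in PEox, a log2 change of -1.21 ± 0.11 (SE, adjusted p = 8.16e-05). Both genes were more than 2-fold lower in the group means, and the groups did not overlap. Exons of Braf, a kinase gene, on the opposite strand, and of 2 predicted genes overlap those of Ndufb2. Braf had a mean of 9.14 ± 0.666 CPM with vehicle and of 14.8 ± 2.86 with PEox (SD, n = 3), and whether its reads were counted to Ndufb2 was not tested.

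Ndufa12 sits at the NADH-oxidising end, where it takes the place that the assembly factor Ndufaf2 holds during assembly. It was at 211, 144 and 149 CPM in vehicle and 81.1, 73.6 and 75.9 in PEox, a log2 change of -1.13 ± 0.14 (SE, adjusted p = 0.000415). Vehicle library 1 stood above the other vehicle libraries, and without it the log2 fold change was -0.93 (adjusted p = 0.000252). Ndufs6, a zinc-binding subunit added late in assembly, was at 159, 152 and 155 CPM in vehicle and 76.9, 70.5 and 70.1 in PEox, a log2 change of -1.10 ± 0.06 (SE, adjusted p = 7.54e-06). Ndufb9, a membrane-arm subunit that binds the acyl carrier protein Ndufab1, was at 349, 333 and 351 CPM in vehicle and 165, 172 and 158 in PEox, a log2 change of -1.06 ± 0.05 (SE, adjusted p = 3.56e-06). In all, 10 subunits were at least 2-fold lower, all of them accessory, beside 12.0% of all tested genes. Ndufb2 was the 1 subunit at least 2-fold lower once the length and GC trend was removed, beside 8.6% of all genes. That value depends on the transcript length assumed for Ndufb2, 2413 bases. Of the 10, the 5 beyond those described were Ndufa11, Ndufb7, Ndufc1, Ndufb5 and Ndufb6, all of the membrane arm, between -1.06 and -1.01.

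The accessory genes that changed least were still outside the spread between libraries. Ndufa9, which sits where the arms meet, was at 210.3, 218 and 216 CPM in vehicle and 155, 142 and 152 in PEox, a log2 change of -0.52 ± 0.05 (SE, adjusted p = 0.000139). Ndufa3 was at 62.8, 61.4 and 56.2 CPM in vehicle and 42.0, 45.6 and 35.2 in PEox, at -0.55 ± 0.11 (SE, adjusted p = 0.00449), and Ndufa8 was at 229, 222 and 217 in vehicle and 148, 156 and 148 in PEox, at -0.56 ± 0.05 (SE, adjusted p = 7.01e-05). Both encode small subunits of the membrane arm. Ndufab1, the mitochondrial acyl carrier protein, which also serves fatty acid, lipoic acid and iron-sulfur cluster synthesis, was at 133, 125 and 134 CPM in vehicle and 96.1, 83.7 and 85.0 in PEox, at -0.57 ± 0.07 (SE, adjusted p = 0.000462). Ndufb3 was at 71.4, 76.6 and 78.5 CPM in vehicle and 51.5, 52.4 and 47.0 in PEox, at -0.59 ± 0.08 (SE, adjusted p = 0.000546). Of these 5, Ndufa9 and Ndufab1 kept their call without the length and GC trend. Ndufa3, Ndufa8 and Ndufb3 lost it, at 0.17 (adjusted p = 0.217), -0.05 (adjusted p = 0.506) and -0.15 (adjusted p = 0.16). The Ndufab1 value without the trend depends on the transcript length assumed, 2447.5 bases, where its longest coding transcript has 3479.

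The remaining 20 accessory subunits, the 5 named above included, lay between -1.06 and -0.59. Ndufs4, whose loss in mice is a model of Leigh syndrome, fell by 0.83 on the log2 scale and kept its call without the length and GC trend, at -0.68 (adjusted p = 0.000139). Ndufa13, also known as GRIM-19, fell by 0.87 and stood at -0.48 (adjusted p = 0.000116) without the trend. Ndufb1-ps, the mouse gene that RefSeq lists as Ndufb1, had the lowest level per length of the subunits and fell by 0.92. Exons of other genes overlap those of 20 of the 48 members, and over 20% of the exon bases do so in Ndufa13 (30%, Tssk6), Ndufb6 (39%, Smim27) and Ndufaf2 (65.6%, B230220B15Rik), each on the opposite strand. Since the use of strand in counting was not given in the sources used here, reads of these pairs cannot be told apart. In Ndufb9, 19.5% of the exon bases are overlapped on the same strand, by Gm49356, which was at 0.274 ± 0.0593 CPM in vehicle (SD, n = 3). Smim27 fell by 1.02 on the log2 scale from 5.25 ± 0.439 CPM (SD, n = 3), Tssk6 was at 1.89 ± 0.306 CPM in vehicle, and B230220B15Rik did not pass the filter on low counts. Copies of members took few reads. The pseudogene Ndufab1-ps was at 5.2% of the Ndufab1 level and Ndufb4c at 6.71% of the Ndufb4 level in vehicle.

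**Figure D3:**
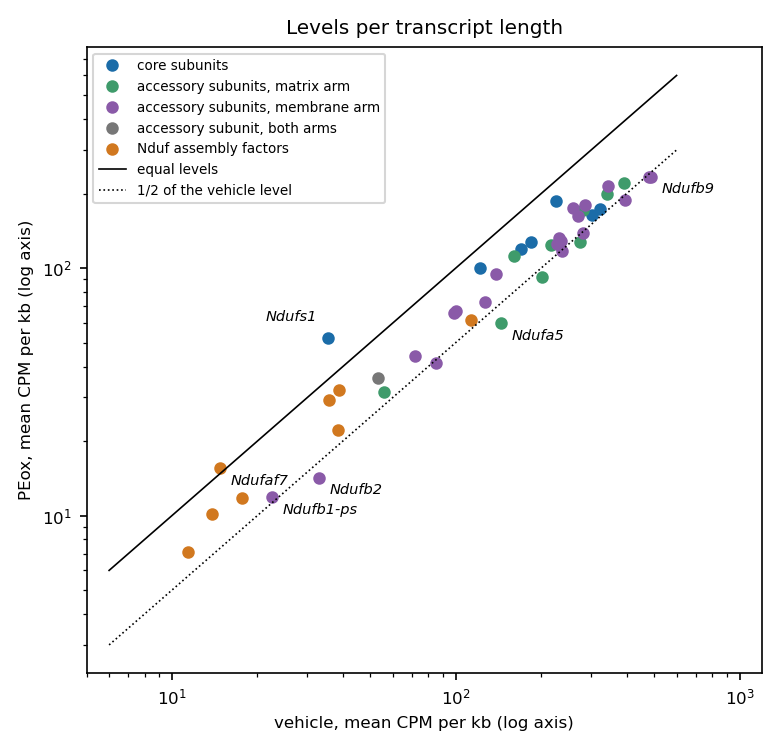
Mean CPM per kilobase of transcript in vehicle (horizontal, log axis) and in PEox (vertical, log axis) for the 37 subunits and 8 assembly factors, with the line of equal levels and a dotted line at 1/2 of the vehicle level. Ndufs1 lies above the line of equal levels, Ndufaf7 close to it, and the other subunits lie between the lines or below the dotted one.

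Levels per length differed 21.8-fold between the lowest and the highest subunit in vehicle and 19.7-fold in PEox. In mean CPM per kilobase of transcript the subunits ranged from 22.5 (Ndufb1-ps) to 489 (Ndufb9) in vehicle, with a median of 225, and from 11.8 to 234, the same 2 genes, with a median of 125, in PEox. The assembly factors ranged from 11.3 (Ndufaf4) to 113 (Ndufaf8) in vehicle, with a median of 26.7, and from 7.12 to 61.5 in PEox, with a median of 18.8. On this scale Ndufs1 was 35th of the 37 subunits in vehicle, at 35.4, and 31st in PEox, at 52.3. These levels depend on the transcript length assumed for each gene. Across the 37 subunits, the correlation of log2 fold change with log2 vehicle level per length was r = -0.28, and r = -0.07 over the 36 without Ndufs1. All points share the same 6 libraries. The vehicle level enters both quantities, and noise in it moves r below 0 by itself.

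Among the assembly factors the log2 fold changes ran from -0.88 to 0.07. They are set beside the subunits without a test, because genes are not replicates. Ndufaf8, the partner that stabilises Ndufaf5, was at 66.9, 66.1 and 72.3 CPM in vehicle and 36.8, 35.2 and 39.5 in PEox, a log2 change of -0.88 ± 0.08 (SE, adjusted p = 8.49e-05). Ndufaf5, which hydroxylates an arginine of Ndufs7, was at 17.1, 14.4 and 16.8 CPM in vehicle and 12.2, 11.1 and 12.3 in PEox, a log2 change of -0.44 ± 0.13 (SE, adjusted p = 0.032). Both genes of this pair were lower in every PEox library than in any vehicle library. The Ndufaf5 call was lost on leaving out any single library except vehicle library 2, with log2 fold changes of -0.46 to -0.39 and adjusted p of 0.0501 to 0.128.

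Ndufaf2, the placeholder for Ndufa12, was at 22.1, 23.4 and 25.9 CPM in vehicle and 13.5, 14.9 and 12.6 in PEox, a log2 change of -0.80 ± 0.13 (SE, adjusted p = 0.0014). Ndufaf4, which with Ndufaf3 helps to build the quinone-binding part, was at 36.7, 40.9 and 46.0 CPM in vehicle and 24.9, 28.8 and 23.9 in PEox, a log2 change of -0.67 ± 0.12 (SE, adjusted p = 0.00285). Ndufaf4 is the assembly factor with the longest transcript, 3632 bases, and the 1 that was still called lower without the length and GC trend, at -0.73 (adjusted p = 0.00206). Ndufaf6, which acts on the same early module, was at 19.8, 17.5 and 19.7 CPM in vehicle and 12.1, 9.91 and 16.2 in PEox, a log2 change of -0.58 ± 0.19 (SE, adjusted p = 0.0419). PEox library 3 was the highest of its group, near the lowest vehicle library, and the Ndufaf6 call was lost on leaving out any single library except PEox library 3, with log2 fold changes of -0.63 to -0.43 and adjusted p of 0.0853 to 0.134.

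The other 3 factors did not pass the test. Ndufaf1, which belongs to the assembly complex of the membrane arm with Ecsit, Acad9 and Tmem126b, was at 53.0, 51.2 and 51.8 CPM in vehicle and 42.3, 36.6 and 48.1 in PEox, a log2 change of -0.30 ± 0.11 (SE, adjusted p = 0.0629). Ndufaf3 was at 58.2, 57.6 and 56.6 CPM in vehicle and 50.3, 50.8 and 41.9 in PEox, a log2 change of -0.27 ± 0.09 (SE, adjusted p = 0.0507). For both genes all PEox values were below the vehicle values, and DESeq2, limma-voom and a stricter filter (5 CPM or more in 3 libraries) called them lower, which gave 7 of 8 factors. Ndufaf1 was also called lower without PEox library 3 and Ndufaf3 without PEox library 2. Without the length and GC trend Ndufaf3 stood at 0.05 (adjusted p = 0.703). Ndufaf7, an arginine methyltransferase, was at 32.4, 32.8 and 33.2 CPM in vehicle and 32.6, 35.8 and 35.2 in PEox, a log2 change of 0.07 ± 0.09 (SE, adjusted p = 0.566). Its groups overlapped, and it was not called in any alternative.

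Per library, the geometric mean CPM of the subunits divided by that of the assembly factors was 4.48, 4.43 and 4.23 in vehicle and 3.69, 3.80 and 3.40 in PEox, or 4.38 ± 0.133 and 3.63 ± 0.209 (SD, n = 3). The ratio was lower in all PEox libraries than in any vehicle library. The difference of the class medians was -0.29 on the log2 scale and -0.17 without the length and GC trend. It was -0.25 without the trend when length was that of the longest transcript, and -0.43 without PEox library 2. The core subunits did not share this difference, with a median of -0.51 like that of the assembly factors, against -0.81 for accessory subunits. Without the trend the medians were -0.09 (core), -0.16 (assembly factors) and -0.39 (accessory), and with the longest transcript -0.05, -0.11 and -0.37. Without the trend 3 of the 7 core subunits were called lower and 1 higher, beside 13.2% of all genes lower. The subunits are shorter, with a median transcript length of 838 bases against 1308.5 for the assembly factors, and shorter genes fell more in these libraries.

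That dependence on length covered the whole transcriptome. All tested genes under 1000 bases, 3410 of them, had a median log2 fold change of -0.45, the 4636 genes of 1000 to 2000 bases -0.17, and the 10184 genes of 2000 bases or more 0.21. In the same classes the subunits had medians of -0.86 (25 genes), -0.53 (8 genes) and -0.58 (4 genes), in each class below the median of all genes of that length. By the length assumed for each gene, the 4 longest were Ndufab1, Ndufb2, Ndufa10 and Ndufs1. These 4 ran from -1.21 (Ndufb2) to 0.56 (Ndufs1), so that Ndufs1 lay above the median of all genes of that length. That Ndufab1 and Ndufb2 fall in this class depends on the length assumed for them. Assembly factors had -0.84 (2 genes), -0.37 (4 genes) and -0.30 (2 genes). Across the 37 subunits, log2 fold change and log2 length had r = 0.46, and r = 0.31 without Ndufs1, beside r = 0.22 over 18230 genes with a length.

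**Figure D4:**
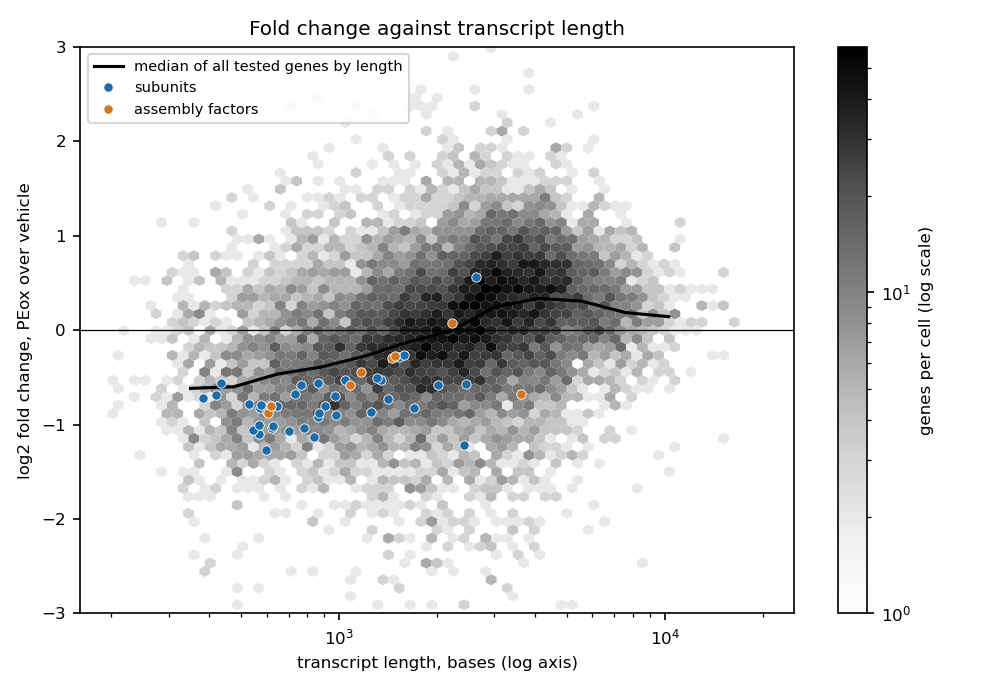
Log2 fold change of PEox over vehicle (vertical) against transcript length in bases (horizontal, log axis), with all tested genes as grey cells shaded by the number of genes, their median by length as a line, and subunits and assembly factors as points. Most subunits lie at the short end and below the line, and Ndufs1 lies above it.

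With the trend of each library on length and GC content removed, the median of the subunits was -0.33 and that of all tested genes 0.14, and 25 subunits fell where 13.2% of all genes did. Among the 11 subunits that lost their call were Ndufs3 and Ndufv1 of the core, Ndufa7 and Ndufa6 of the matrix arm, and Ndufb3, Ndufa3, Ndufa8, Ndufa1, Ndufc2 and Ndufb10 of the membrane arm. The largest remaining differences were Ndufb2 at -1.14 (adjusted p = 0.000154), Ndufs4 at -0.68 (adjusted p = 0.000139), Ndufa5 at -0.65 (adjusted p = 0.000362) and Ndufa12 at -0.64 (adjusted p = 0.00807). For Ndufb2 the length used was 2413 bases, and its longest coding transcript has 4371. Its value without the trend depends on the length assumed. Length was taken as the median over a gene's basic coding transcripts, a choice made after the longest coding transcript had been tried. With the longest transcript 24 subunits and 2 assembly factors, Ndufaf4 and Ndufaf8, were lower, all 24 subunits being among the 25. Whether the length trend is technical or belongs to the treatment was not tested.

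Outside the complex, Ndufa4, a subunit once assigned to complex I and now to complex IV, was at 143, 142 and 149 CPM in vehicle and 85.9, 88.2 and 79.7 in PEox, a log2 change of -0.78 ± 0.06 (SE, adjusted p = 3.67e-05). Ndufb4c, a close copy of Ndufb4, was at 4.64, 5.24 and 4.12 CPM in vehicle and 3.23, 3.70 and 3.02 in PEox and was not called, at -0.49 ± 0.22 (SE, adjusted p = 0.128). Reads of the copy and of Ndufb4 may be shared. Ndufa4l2, a hypoxia-induced relative of Ndufa4, was near the limit of detection at 0.205, 0.212 and 0.286 CPM in vehicle and 0.765, 0.22 and 0.0661 in PEox, where 3 counts equal 0.047 to 0.053 CPM, and its log2 fold change of 0.58 had the other sign with limma-voom or without PEox library 1.

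The mitochondrial genome encodes 7 further subunits of the membrane arm, and 6 of them were lower after PEox, beside 18.8% of all tested genes. mt-Nd1 went from 1657 ± 45.7 to 904 ± 64.5 CPM (SD, n = 3), a log2 change of -0.87 ± 0.05 (SE, adjusted p = 1.26e-05), and mt-Nd3 from 28.4 ± 0.675 to 9.89 ± 2.30 CPM, at -1.52 ± 0.18 (SE, adjusted p = 0.000321). mt-Nd2 was at -0.73, mt-Nd4l at -0.85, mt-Nd4 at -0.46 and mt-Nd6 at -0.33 on the log2 scale, all called. The mt-Nd6 call was lost without vehicle library 2 or 3, at -0.32 and -0.30 (adjusted p = 0.0545 and 0.0528). mt-Nd5 was not called, with means of 477 ± 25.4 CPM for vehicle and 453 ± 51.3 for PEox (SD, n = 3), at -0.07 ± 0.08 (SE, adjusted p = 0.548), and scaling by library size alone put it at 0.06. Without the length and GC trend 5 of the 7 were lower, beside 13.2% of all genes, and mt-Nd6 stood at 0.01 (adjusted p = 0.948). Mitochondrially encoded genes together took 1.63% to 1.83% of the counts in vehicle libraries and 1.21% to 1.38% in PEox libraries.

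Of 12 further complex I assembly factors not named Nduf, 11 were matched and tested, with a median of -0.29. Of these 11, 6 fell, beside 18.8% of all tested genes. Those 6 were Tmem126a (-0.70) and Dmac1 (-0.68), which act on the membrane arm, Nubpl (-0.73), which delivers iron-sulfur clusters, Ecsit (-0.36), Tmem70 (-0.29) and Lyrm2 (-0.41). Acad9 and Tmem126b, partners of Ndufaf1 and Ecsit, were not called, at 0.23 and 0.14. Nubpl was not called without vehicle library 2 or 3 or PEox library 3 (-0.69 to -0.59, adjusted p 0.0585 to 0.0951), and Ecsit was not called without vehicle library 1 or PEox library 2 or 3 (-0.34 to -0.27, adjusted p 0.0506 to 0.0596). The Lyrm2 call was lost on leaving out any single library except PEox library 2 (-0.46 to -0.35, adjusted p 0.052 to 0.112). Without the length and GC trend Tmem126a and Nubpl were called lower, Acad9 was called higher at 0.37 (adjusted p = 0.0283), and Lyrm2 stood at 0.21 (adjusted p = 0.208). That was 2 of 11 genes lower, where 13.2% of all genes were, and 1 higher, where 3865 of 18230 genes were.

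Iron-sulfur cluster synthesis supplies the cofactors of the core subunits. Of 15 such genes 6 fell, 1 rose and 8 were not called, with a median of -0.25. Of all tested genes 18.8% fell and 18.3% rose. Bola3, which passes clusters on to late targets, went from 69.1 ± 4.93 to 25.2 ± 1.83 CPM (SD, n = 3), a log2 change of -1.46 ± 0.09 (SE, adjusted p = 1.44e-05). Glrx5 stood at -0.84 and Iscu, the scaffold, at -0.44, while Lyrm4, a partner of the desulfurase, rose at 0.48 ± 0.09 (SE, adjusted p = 0.00401). The desulfurase gene Nfs1 was not called, at 0.12 ± 0.09 (SE, adjusted p = 0.335). Bola3 and Glrx5 were also lower without the length and GC trend, and Iscu was not, at -0.02 (adjusted p = 0.814). In that analysis 4 genes of the list were lower and 4 higher, with a median of 0.00, and Nfs1 was called higher at 0.44 (adjusted p = 0.00422). Of the 18230 genes in it, 2411 were lower and 3865 higher, and their median was 0.14. Nfs1 was also called higher with the longest transcript, at 0.35 (adjusted p = 0.0137), and with library size scaling, at 0.26 (adjusted p = 0.0426).

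The later complexes of oxidative phosphorylation had medians of -0.97 to -0.81, beside -0.80 for the complex I subunits. All 9 tested genes of complex III fell (median -0.81), all 10 of complex IV (median -0.97) and all 15 of complex V (median -0.85). Of all tested genes 18.8% fell. In complex III the smallest p-values belonged to Uqcr10 (-1.10), Uqcr11 and Uqcrh (-0.92), in complex IV to Cox4i1 (-1.06), Cox5b (-1.02) and Cox6a1 (-0.93), and in complex V to Atp5o (-1.14), Atp5l (-0.94) and Atp5g3 (-0.83). Of the 4 succinate dehydrogenase genes of complex II, which carry electrons to the same ubiquinone pool without pumping protons, Sdhb fell from 319 ± 6.89 to 239 ± 6.91 CPM (SD, n = 3), at -0.41 ± 0.04 (SE, adjusted p = 0.0002). Sdhc fell at -0.16 ± 0.05 (SE, adjusted p = 0.0256), Sdhd rose at 0.20 ± 0.06 (SE, adjusted p = 0.0237) and Sdha was not called, at -0.05 ± 0.04 (SE, adjusted p = 0.395). Scaling by library size alone put Sdha at 0.08 and Sdhc, then not called, at -0.03. The Sdhc and Sdhd calls were each lost on leaving out single libraries, Sdhc without any of the vehicle libraries or PEox library 2 (-0.17 to -0.14, adjusted p 0.0637 to 0.0873) and Sdhd without vehicle library 2 or 3 or PEox library 1 (0.16 to 0.22, adjusted p 0.0547 to 0.0828). Without the length and GC trend 7, 9 and 12 genes of complexes III, IV and V fell and none rose, and in complex II none fell and Sdhd rose. Of all genes 13.2% fell in that fit.

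**Figure D5:**
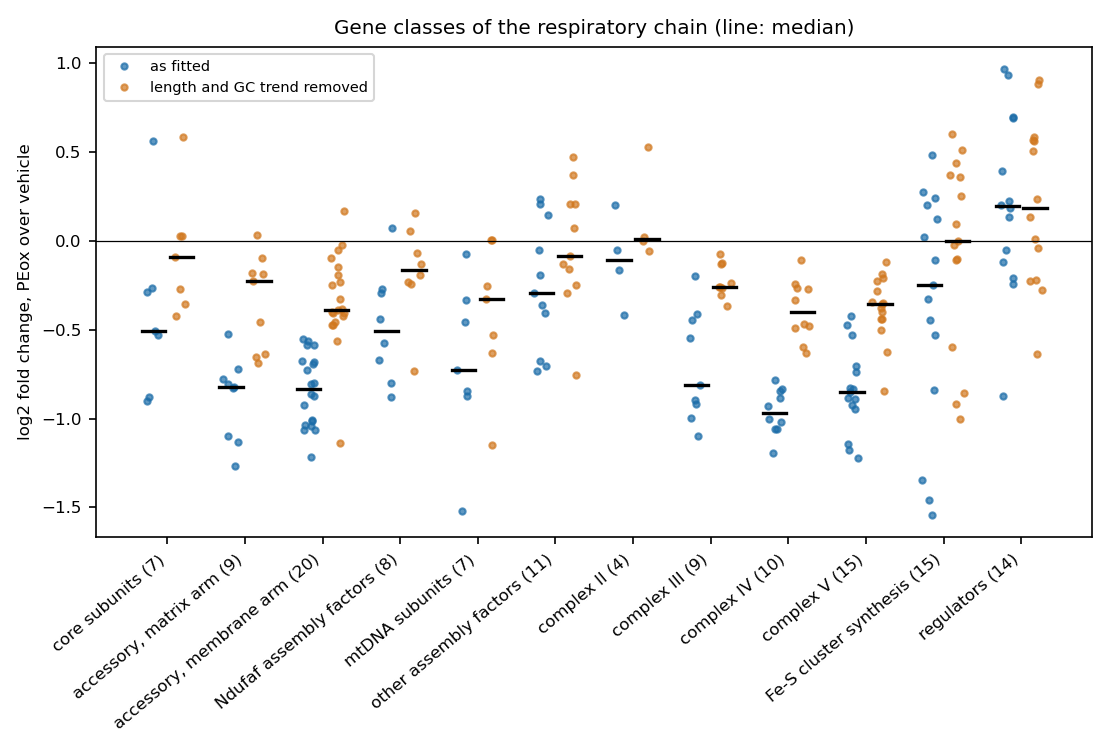
Log2 fold change of PEox over vehicle (vertical) for the genes of each class, with the number of genes in brackets, as fitted (blue) and after removing the length and GC trend (orange), and a black line at each median. Core subunits spread from -0.90 to 0.56, and complexes III to V lie wholly below 0 as fitted and after removal of the trend.

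Of 14 regulators of respiratory chain genes, 1 fell, 4 rose and 9 were not called, with a median of 0.19. Of all tested genes 18.8% fell and 18.3% rose, and those of 2000 bases or more had a median of 0.21. Gabpa, the ETS-family subunit of GABP, rose from 24.8 ± 2.79 to 48.4 ± 1.39 CPM (SD, n = 3), a log2 change of 0.97 ± 0.11 (SE, adjusted p = 0.00021), and Polrmt, the mitochondrial RNA polymerase, from 35.5 ± 1.12 to 68.0 ± 11.8 CPM, at 0.94 ± 0.12 (SE, adjusted p = 0.000595). Lrpprc, which stabilises mitochondrial messenger RNA, rose at 0.70 ± 0.08 (SE, adjusted p = 0.000308) and Nrf1, the gene of the factor that binds GCATGCGC, at 0.40 ± 0.13 (SE, adjusted p = 0.0452). The Nrf1 call was lost on leaving out any single library except PEox library 1, with log2 fold changes of 0.24 to 0.44 and adjusted p of 0.0869 to 0.142. Myc, a transcription factor that also drives growth genes, fell from 117 ± 15.8 to 63.9 ± 6.46 CPM, at -0.87 ± 0.11 (SE, adjusted p = 0.000535). With the trend on length and GC content removed, 1 regulator fell and 5 rose, the fifth being Tfam, which codes for the factor that packages mitochondrial DNA, at 0.51 (adjusted p = 0.0051). With the longest transcript Tfam was not called, at 0.08 (adjusted p = 0.598). In the first of these fits 2411 of 18230 genes fell and 3865 rose. The median was 0.14 for all genes and 0.19 for the 14 regulators. As fitted, Yy1, Tfam and Esrra (the ERR alpha gene) were not called, at -0.05, 0.13 and -0.21, and the coactivator gene Ppargc1a was low, at 0.315, 0.494 and 0.318 CPM in vehicle and 0.714, 0.102 and 1.01 in PEox.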

How the data were processed

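The deposited table held raw counts per gene, whole numbers without normalization, for 55401 mouse Ensembl identifiers in 6 libraries of paired 150 bp reads. Per the labels' protocols, reads were cleaned with fastp and aligned with HISAT2 2.0.5. Per the submitters' processing notes the tools also included edgeR 3.22.5. Counter, genome build, annotation and use of strand are not given in the sources used here. Columns were matched to samples by title. Symbols came from a table of gene names (55141 identifiers matched), and biotypes, exons and transcript lengths from GENCODE M21 and RefSeq, which need not be the annotation used for counting.

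Counts were tested in R 4.3.3 with edgeR 4.0.16 (filterByExpr by group, TMM factors of 0.951 to 1.05, robust quasi-likelihood test, treatment as its one term) over 18253 genes, with Benjamini-Hochberg adjustment over all of them and a threshold of 0.05. The SE of a log2 fold change was taken as its size over the square root of F, and CPM include TMM scaling. At these depths 3 counts equal 0.047 to 0.053 CPM, and such floors cover counting error only. Within groups, libraries varied beyond sampling noise (chi-square per gene of 15.9 to 36.5) and were each kept as 1 replicate. The procedure was tested on simulated data.

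Alternatives were RLE scaling, library size alone, no filter, a minimum of 5 CPM in 3 libraries, a block for replicate number, each library left out, DESeq2 1.42.0, limma-voom (limma 3.58.1) and removal of each library's trend on transcript length and GC content (loess, span 0.5), for which 18230 genes had a length. The first such run used the longest coding transcript, which for Ndufb2 and Ndufab1 was far longer than the others, and the median over basic coding transcripts replaced it after those results had been seen. Both are given.

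The members, lists, motifs and the rule for named genes were chosen with earlier results of these data known. The rule took the core subunits, Ndufaf factors, genes outside the complex, the 5 accessory subunits with the smallest and 5 with the largest fold change, the mt-Nd genes, called genes of the other assembly factor list and up to 4 genes of each other list by p-value. Other members, Lyrm4, Nfs1, Acad9, Tmem126b, Nrf1, Yy1, Tfam, Esrra, Ppargc1a, Eef1b2, Ino80dos, Braf, Smim27, Tssk6 and Gm49356 were named after their values were seen. So were the markers Il22, Kit, Tcf7, Il17f, Id2, Thy1 and Gata3. A few others under the rule are not reported here, although list counts and medians include them.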

Additional observations from a re-analysis of the deposited data

How the results depend on the processing

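Of 1449 pairs of a named gene and an alternative, 1321 kept direction and call, 88 lost the call, 15 gained one and 25 changed sign. The subunit count was 36 lower in each leave-one-out fit and 34 to 36 under every alternative except removal of the length and GC trend. RLE scaling, DESeq2 and limma-voom left it at 36. Leaving out 1 library gave 40 to 42 genes lower in all, 3 (without vehicle library 1 or 3 or PEox library 1) to 5 assembly factors lower, medians of -0.84 to -0.77 for subunits and -0.57 to -0.41 for assembly factors, and class differences of -0.43 to -0.23. Library size alone gave 3 assembly factors lower and medians of -0.67 and -0.37, beside a median of 0.14 for all genes. Removing the length and GC trend gave 27 genes and 1 assembly factor lower with medians of -0.33 and -0.16, and with the longest transcript, an alternative added after seeing the data, 27 and 2 with medians of -0.35 and -0.11.

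Signs changed on removing that trend (with the longest transcript second) for Ndufv1 (0.03 and 0.04), Ndufa3 (0.17 and 0.12), Ndufaf3 (0.05 and 0.10), Ndufb4c (0.23 and 0.24), Lyrm2 (0.21 and 0.22), mt-Nd6 (0.01 and 0.02) and mt-Nd5 (0.00 and 0.05). With the median length alone they changed for Ndufa6 (0.03) and Sdhc (0.02), and with the longest alone for Sdhb (0.04) and Sdha (0.01). In both fits the median of all tested genes was itself 0.14. Library size alone turned mt-Nd5 (0.06), Sdha (0.08) and Yy1 (0.08), limma-voom turned Ndufa4l2 (-0.04), and leaving out 1 library moved Ndufa4l2 between -0.70 and 1.07, mt-Nd5 between -0.13 and 0.02 and Yy1 between -0.09 and 0.00. The causes were not tested.

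The replicate numbers do not pair the libraries by their labels, and deviations of same-numbered libraries from their group means correlated at 0.01, 0.01 and -0.01. With the replicate number as a block 41 genes were lower, 36 subunits and 4 assembly factors among them, and 6159 genes were called in all against 6775. At 56252806 counts or more per library, Ndufa4l2 was the member too low for a direction to be read.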
